A study of Mus musculus with 6 samples.

Results

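Interferon regulatory factors (IRFs) are transcription factors that bind DNA through a conserved, tryptophan-rich N-terminal domain. Pattern-recognition receptors switch on Irf3 and Irf7, which drive type I interferon genes. Irf9 is the DNA-binding subunit of ISGF3, the complex through which type I interferon induces its target genes, while interferon-gamma induces Irf1, and Irf2 competes with Irf1 for the same sites. Irf4 and Irf8 act mainly in lymphoid, monocytic and dendritic cells, and Irf8 is known as a factor that steers myeloid progenitors. The family was taken as 8 listed genes, Irf1, Irf2, Irf3, Irf4, Irf5, Irf7, Irf8 and Irf9, matched by gene symbol to probe sets that carry a single symbol. This gave 8 probe sets for 7 of the 8 genes, out of 22180 genes measured in all. Irf5 lay only on a probe set shared with another gene and has no value here. Where a gene had more than 1 probe set, as Irf8 did, the one of highest mean over the 6 arrays represented it.

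The values are log2 signals of megakaryocyte-erythroid progenitors (MEP), precursors of megakaryocytes and red cells that were sorted by flow cytometry from fresh marrow of C57BL/6 mice. The 6 arrays were 3 of T-bet knockout animals and 3 of wild-type animals, each described as a different mouse, and 3 values of a group are given below in the order of replicates 1, 2 and 3. T-bet is the T helper 1 and natural killer cell transcription factor made from the gene Tbx21. The labels name neither treatment, age nor sex of the mice, nor how the knockout was made, nor the antibodies of the sort. The comparison asks how loss of T-bet bears on the transcripts of MEP.

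The targeted gene gave no check of the labels. Tbx21 read 6.41, 6.60 and 6.46 in the knockout and 6.54, 6.62 and 6.60 in the wild-type arrays. Its difference was -0.09 (SE 0.09), and the exact 2-sided permutation test gave p = 0.3, where 3 arrays against 3 allow no p below 0.1. The exons that its probe set covers are not known here. Of the 13 MEP markers, 12 were measured; Car1 read 13.60 to 13.70 and Kit 11.95 to 12.07 over the 6 arrays, and the mean signal of the 12 was 9.82 to 9.94 in the knockout and 9.90 to 9.95 in the wild type. At an unadjusted p under 0.05, 0 of them were higher and 1 lower: Itga2b, the integrin chain CD41, read 7.25, 7.15 and 7.34 against 7.50, 7.41 and 7.86, which is -0.34 (SE 0.14, limma unadjusted p = 0.0449, adjusted p = 1.000). At that level 1.44% of all genes were higher and 1.70% lower. Pf4 and Vwf, also genes of megakaryocytes, differed by -0.48 (SE 0.21) and -0.19 (SE 0.12). Of the 12 markers 7 were higher and 5 lower, with a median difference of 0.01. Gata1 differed by 0.01, Gfi1b by 0.06 and Nfe2 by -0.02. Signal of both Xist (11.79 to 11.83), an RNA of female cells, and the Y-linked gene Eif2s3y (8.39 to 8.86) was found in knockout replicates 1 and 2 and in wild-type replicate 1. Xist was at 5.42 and 5.56 in the third replicate of each group, and Eif2s3y at 4.95 in wild-type replicate 2. The arrays that carried both signals, knockout replicates 1 and 2 and wild-type replicate 1, go against their description as single mice. The p-values therefore measure the spread between these 6 arrays.

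No IRF gene differed between the genotypes beyond the spread of the arrays. Of the 7 measured genes, 0 passed limma's adjusted p of 0.05, where 0.00% of all 41345 probe sets did, and 0 had an unadjusted p under 0.05, where 3.13% of genes and 4.92% of probe sets did. The adjusted p was 1.000 for each. Knockout and wild-type values overlapped for all 7; groups did not overlap for 8.70% of genes. The mean was above wild type in 6 and below it in 1, Irf1, while 48.2% of all genes had a difference above 0. The median difference was 0.07, against 0.00 over all genes. For 5 of the 7 genes the 95% interval stayed inside a 1.5-fold change up or down, as it did for 85.9% of all genes, and it reached past that for Irf1 and Irf7. None of the 7 lay in the dim 30% of probe sets. Irf4 was the nearest to it, at percentile 35.1 of probe set means, and the second Irf8 probe set lay at 32.9. In sorted cells measured in bulk, fewer cells of a type and less RNA per cell cannot be told apart.

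**Figure D1:**
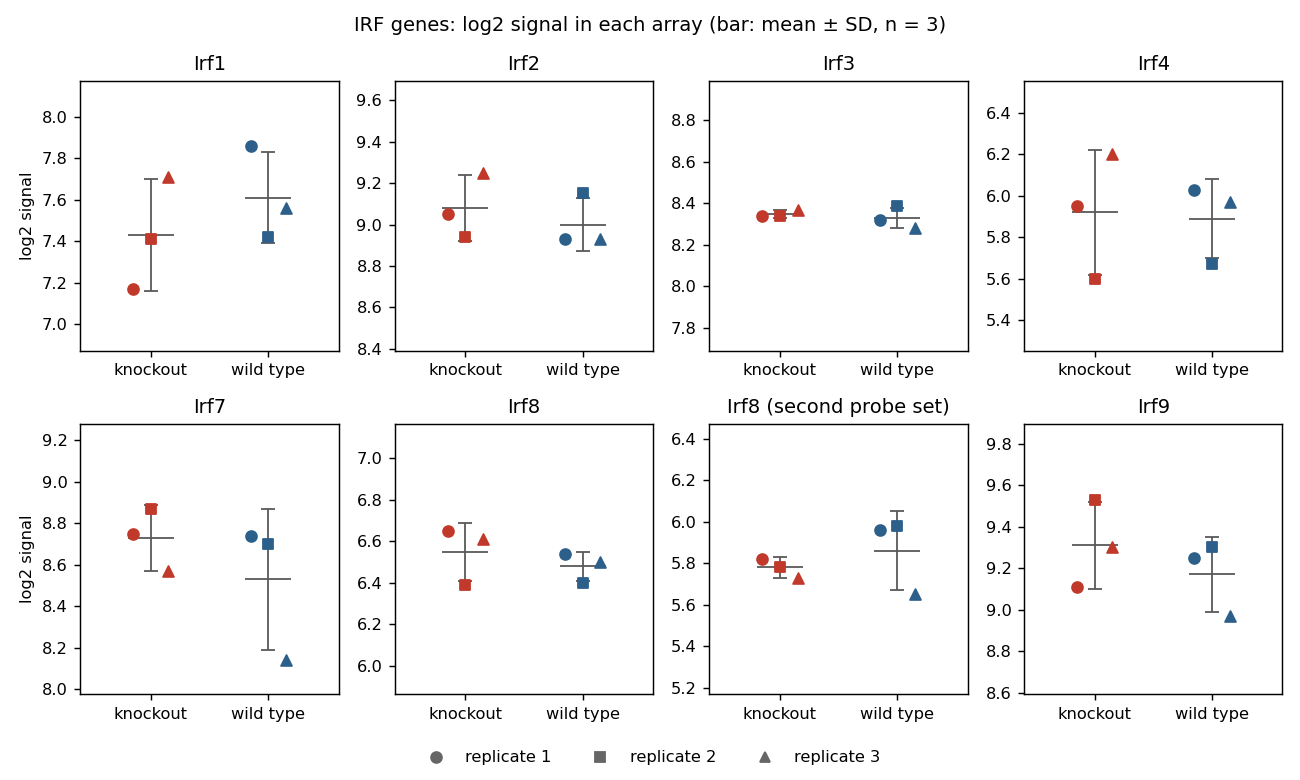
Log2 signal (vertical axis, of the same height in each panel) of the IRF probe sets in the 3 knockout and 3 wild-type arrays; symbols mark the replicate number, and bars the mean ± SD of 3 arrays. The groups overlap in every panel. Wild-type replicate 3 is the low point of Irf3, Irf7, Irf9 and the second Irf8 probe set, and Irf3 spans 0.10 over all 6 arrays.

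Some IRF genes are themselves interferon-inducible through short promoter elements, and the promoter stretches that hold such letters are shown here because interferon signalling is known to reach genes through these elements. The windows, from 250 bases before to 50 bases after each RefSeq start (GRCm38.p6), covered all 8 listed genes in 11 promoters, and were searched on both strands. TTCNNNGAA, the gamma activated sequence, was found in 3 of the 11 promoters, those of Irf1, Irf2 and Irf8, and in 8.3% of all 32851 promoters. The core of the interferon-stimulated response element, bound by IRFs and ISGF3 and made of a pair of GAAA blocks in the same orientation with 2 free bases between them, was found in 1 of the 11, that of Irf2, and in 3.44% of all promoters. The shorter GAAANNG, which that core contains, was found in 7 of the 11 and in 52.7% of all promoters. The stretches below are on the plus strand, at chr11:53769879-53769977 for Irf1, chr8:46739495-46739574 for Irf2 and chr8:120736142-120736258 for Irf8, and end 37, 171 and 100 bases before the start. Capitals mark the matches, which in Irf2 are the response element core and then TTCNNNGAA and in the others TTCNNNGAA alone.
Irf1: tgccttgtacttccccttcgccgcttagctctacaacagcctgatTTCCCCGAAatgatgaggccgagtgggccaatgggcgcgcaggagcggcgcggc
Irf2: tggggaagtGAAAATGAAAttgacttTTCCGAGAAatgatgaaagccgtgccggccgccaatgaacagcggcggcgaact
Irf8: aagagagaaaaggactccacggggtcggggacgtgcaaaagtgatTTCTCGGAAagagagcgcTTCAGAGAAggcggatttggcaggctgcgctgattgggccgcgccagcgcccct
A match is a description of these letters, and says nothing of binding in MEP.

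Irf3 and Irf7 are the factors that sensors of viral nucleic acid activate. Irf3, made in most cells without induction, read 8.34, 8.34 and 8.37 in the knockout and 8.32, 8.39 and 8.28 in the wild-type arrays. It was the steadiest of the family: its pooled SD within groups was 0.04, at percentile 2.1 among all genes. The difference was 0.02 (SE 0.08, 95% interval -0.18 to 0.22), which bounds the change in signal between 0.881-fold and 1.16-fold.

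Irf7, itself an interferon-induced gene, was the most variable. It read 8.75, 8.87 and 8.57 in the knockout and 8.74, 8.70 and 8.14 in the wild-type arrays. Wild-type replicate 3 stood below the other 5 arrays, which lay between 8.57 and 8.87. The difference was 0.20 (SE 0.19, interval -0.24 to 0.65, limma unadjusted p = 0.309; exact permutation p = 0.5), and lay between 0.01 (without wild-type replicate 3) and 0.31 (without wild-type replicate 1) when 1 array was left out. The same-numbered arrays differed by 0.01, 0.17 and 0.43 for numbers 1 to 3.

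Irf9 read 9.11, 9.53 and 9.30 in the knockout and 9.25, 9.30 and 8.97 in the wild-type arrays. As for Irf7, knockout replicate 2 was the highest array and wild-type replicate 3 the lowest. The difference was 0.14 (SE 0.15, interval -0.21 to 0.49, limma unadjusted p = 0.379; exact permutation p = 0.4), and with 1 array left out it lay between 0.03 (without knockout replicate 2) and 0.24 (without knockout replicate 1), at 0.04 without wild-type replicate 3. Stat2, its partner in ISGF3, read 8.92, 9.20 and 9.15 against 8.83, 8.92 and 8.70. The means were 9.09 ± 0.15 (SD, n = 3) and 8.81 ± 0.11, which differ by 0.27 (SE 0.12, limma unadjusted p = 0.0516, adjusted p = 1.000), and Stat2 was also highest in knockout replicate 2 and lowest in wild-type replicate 3.

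Irf1, the activator induced by interferon-gamma, read 7.17, 7.41 and 7.71 in the knockout and 7.86, 7.42 and 7.56 in the wild-type arrays. The lowest array was knockout replicate 1 and the highest wild-type replicate 1, so that the arrays numbered 1 differed by -0.69, those numbered 2 by -0.01 and those numbered 3 by 0.15. The difference of the group means was -0.18 (SE 0.18, interval -0.60 to 0.24, limma unadjusted p = 0.337; exact permutation p = 0.4). The interval's lower end is a 0.658-fold level, so a decrease of that size was not excluded at 3 arrays a group. With 1 array left out the difference ran from -0.32 (without knockout replicate 3, limma unadjusted p = 0.104) to -0.05 (without knockout replicate 1), and it was -0.06 without wild-type replicate 1.

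Irf2, the antagonist of Irf1, read 9.05, 8.94 and 9.25 in the knockout and 8.93, 9.15 and 8.93 in the wild-type arrays. High and low arrays were found in both groups. Its difference was 0.08 (SE 0.12, interval -0.22 to 0.37, limma unadjusted p = 0.553), and its pooled SD of 0.15 was near the median of all genes, 0.14.

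Irf4, a factor of B cells, plasma cells and activated T cells, read 5.95, 5.60 and 6.20 in the knockout and 6.03, 5.67 and 5.97 in the wild-type arrays. Replicate 2 was the lowest array of each group, and the groups overlapped. The difference was 0.03 (SE 0.18, interval -0.40 to 0.46; exact permutation p = 1). The mean of the B cell markers moved with it across arrays, though not every marker did. Of 12 listed, 10 were measured, and their mean signal was 6.92, 6.59 and 7.17 in the knockout and 6.77, 6.35 and 6.78 in the wild-type arrays. As for Irf4, knockout replicate 3 was highest and the replicates numbered 2 were lowest. The mean of the granulocyte and monocyte markers had the same extremes, at 6.02, 5.79 and 6.15 in the knockout and 5.98, 5.82 and 6.03 in the wild type. Knockout replicate 3 was also the highest array for 21.5% of all genes. Ighm, the IgM heavy chain, spanned 7.40 to 9.45 and Igll1, a surrogate light chain, 6.69 to 8.13. The mean of the B cell markers was higher in the knockout in each of the 3 same-numbered pairs, in which Irf4 differed by -0.07, -0.07 and 0.23. Of the 10 B cell markers, 0 had an unadjusted p under 0.05 in the fit without pairs. With replicate number as a block 5 did (Ighm, Cd79a, Ebf1, Blnk and Igll1, all higher, adjusted p = 0.766 each). The share of all genes at that level under the block is not given here, so these 5 have no background beside them. The 7 plasma cell markers had mean signals of 6.37 to 6.48 in knockout and 6.40 to 6.52 in wild-type arrays. The part of B-lineage cells in the Irf4 signal was not tested.

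Irf8, which directs progenitors toward monocytes and dendritic cells, had 2 probe sets, and they did not give the same sign. The brighter read 6.65, 6.39 and 6.61 in the knockout and 6.54, 6.40 and 6.50 in the wild-type arrays. Here too the replicates numbered 2 were the lowest of each group, and the difference was 0.07 (SE 0.11, interval -0.18 to 0.33, limma unadjusted p = 0.527). The other read 5.82, 5.78 and 5.73 against 5.96, 5.98 and 5.65, with a difference of -0.09 (SE 0.12, interval -0.37 to 0.19), and its replicates numbered 2 were not low. Both intervals include 0. The 13 granulocyte and monocyte markers had mean signals of 6.02, 5.79 and 6.15 in the knockout and 5.98, 5.82 and 6.03 in the wild type. These means were lowest in the replicates numbered 2, like the brighter probe set. So were the means of the macrophage markers (6.13 and 6.24) and the B cell markers (6.59 and 6.35). Of the 13, 5 were lowest in knockout replicate 2 and 4 in wild-type replicate 2. Mpo, the brightest, was lowest in the replicates numbered 1 (6.42 and 6.49). Dendritic cell markers, 11 of 12 measured, spanned 6.63 to 6.72 in knockout and 6.68 to 6.77 in wild-type arrays, and the 12 macrophage markers 6.13 to 6.35 and 6.24 to 6.31. T and NK cell markers, 12 of 13 measured, spanned 6.03 to 6.21 and 6.01 to 6.10. The part of these cells in the Irf8 signal was not tested.

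**Figure D2:**
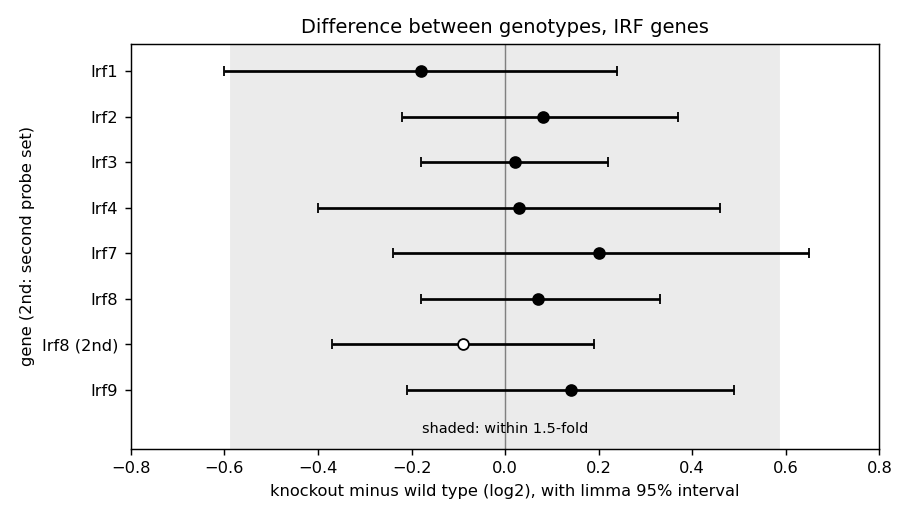
Difference between knockout and wild-type means (log2, horizontal axis) with limma's 95% interval for each IRF probe set; the open circle is the second Irf8 probe set, and shading marks a change within 1.5-fold. Every interval holds 0, and those of Irf1 and Irf7 leave the shaded band.

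The genes on either side of the IRFs were taken from 6 lists, in which 0 genes passed limma's adjusted p of 0.05. Over all genes 1.44% were higher and 1.70% lower at an unadjusted p under 0.05. The activating pathway, from Toll-like receptors and cytosolic sensors to the kinases that phosphorylate Irf3 and Irf7, had 22 of 25 genes measured, a median difference of 0.02 and 0 genes at that level. Myd88, the adaptor of most Toll-like receptors, differed by 0.04 (SE 0.11), the IRF kinase gene Tbk1 by 0.00 (SE 0.11), and the receptor-associated kinase gene Irak1, the smallest p of the list, by -0.18 (SE 0.11, limma unadjusted p = 0.161). Azi2, an adaptor of Tbk1, differed by 0.08 (SE 0.08).

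Partners and regulators of the IRFs had 18 of 20 genes measured, a median of 0.03 and 0 genes at an unadjusted p under 0.05. Stat2 was the largest positive difference. Spi1, which encodes PU.1, the ETS factor with which Irf4 and Irf8 bind composite sites, differed by 0.02 (SE 0.11), and Batf3, an AP-1 partner of Irf8 in dendritic cells, by -0.27 (SE 0.20). The interferon ligands, among them the type I interferons that Irf3 and Irf7 drive and the type II interferon Ifng, had 16 of 17 genes measured, of which 8 were dim. Their median was -0.05, with 0 genes at that level. Ifna12 and Ifnk, the smallest p of the list, differed by -0.24 (SE 0.12) and -0.14 (SE 0.08) and were both dim. Interferon alpha genes are near-identical copies, and whether their probe sets read each other was not tested.

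Targets of ISGF3, the genes that Irf9 serves, had 20 of 22 measured. Their differences were above 0 in 15 and below in 5, where 48.2% of all genes had a difference above 0. The median was 0.08, and 0 genes had an unadjusted p under 0.05. Oasl1, of the oligoadenylate synthetase-like family, read 8.43, 8.68 and 8.49 against 8.33, 8.44 and 8.21 in the wild type, a difference of 0.21 (SE 0.11, limma unadjusted p = 0.111). Rsad2, which encodes the antiviral protein viperin, read 7.84, 8.06 and 7.81 against 7.79, 7.76 and 7.46, a difference of 0.23 (SE 0.13, limma unadjusted p = 0.121), and its groups did not overlap. Wild-type replicate 3 was the lowest array for 14 of the 20 targets (70.0%, against 12.9% of all genes) and knockout replicate 2 the highest for 10 of them (against 12.9% of all genes). With 1 array left out the median difference ran from 0.01 (without wild-type replicate 3, with 12 of 20 above 0) to 0.13 (without wild-type replicate 2). With the replicate number as a block 1 target had an unadjusted p under 0.05, the ubiquitin-like modifier gene Isg15, at 0.23 (SE 0.09, limma unadjusted p = 0.0487, against 0.229 without the block; adjusted p = 0.766). Thus 14 of the 20 targets shared their low array, and 10 their high array, with Irf7, Irf9 and Stat2. These extremes were not confined to the targets. In other lists wild-type replicate 3 was lowest for 1 of 16 (interferon ligands) to 6 of 12 genes (T and NK cell markers). Knockout replicate 2 was highest for 0 of 21 (Irf1 targets) to 8 of 22 genes (the activating pathway). The counts describe 6 arrays that all genes share, so the genes are not independent.

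**Figure D3:**
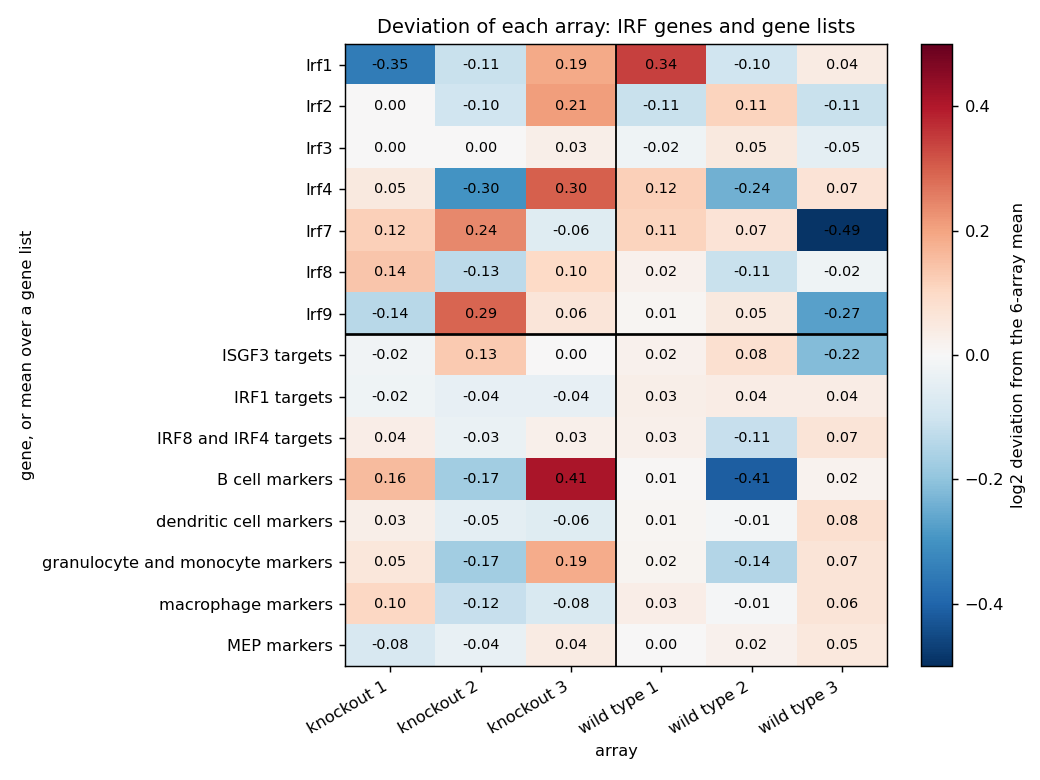
Deviation of each array (columns) from the 6-array mean in log2 units, by colour and number, for the IRF genes (upper rows) and for the mean signal of gene lists (lower rows); the vertical line separates knockout from wild type. Irf7, Irf9 and the mean of the ISGF3 targets are lowest in wild-type replicate 3, at -0.49, -0.27 and -0.22, and so is Irf3, at -0.05. Irf2, Irf4 and the means of the B cell markers and of the granulocyte and monocyte markers are highest in knockout replicate 3.

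Targets of Irf1, which include genes of antigen presentation and interferon-gamma-induced chemokines, had 21 of 23 measured. Differences were above 0 in 5 and below in 16, with a median of -0.07, where 48.2% of all genes had a difference above 0. At an unadjusted p under 0.05, 0 were higher and 3 lower, against 1.44% and 1.70% of all genes. These 3 were the only genes at that level among the 110 distinct genes of the 6 lists, where 3.13% of all genes were. Genes of a list share the same 6 arrays and are not independent. Il15, a cytokine of natural killer cell upkeep, read 5.27, 5.33 and 5.12 in the knockout against 5.50, 5.53 and 5.60, a difference of -0.30 (SE 0.10, limma unadjusted p = 0.0182, adjusted p = 1.000). Cxcl9, a chemokine gene, read 5.59, 5.64 and 5.43 against 5.98, 5.80 and 5.76, a difference of -0.29 (SE 0.11, limma unadjusted p = 0.0336). Cxcl10, a chemokine gene for the same receptor, read 6.21, 6.00 and 6.09 against 6.30, 6.29 and 6.49, a difference of -0.26 (SE 0.11, limma unadjusted p = 0.0427). The groups of these 3 genes did not overlap, as was so for 8 of the 110 distinct genes of the 6 lists (7.27%, against 8.70% of all genes). Il15 and Cxcl9 were dim, and none of the 3 was lowest in knockout replicate 1, the lowest array of Irf1. Without wild-type replicate 3 the count over the 6 lists was 1 gene in place of 3, and with replicate number as a block it was 5. These were Il15, Cxcl9 and the GTPase gene Gbp4 (0.24) among the Irf1 targets, with Isg15 and Ebf1, while Cxcl10 was no longer among them. Each of the 5 had an adjusted p of 0.766. The share of all genes at an unadjusted p under 0.05 under the block is not given here. The presentation genes Tap1 and B2m differed by -0.14 (SE 0.11) and -0.08 (SE 0.10).

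Targets of Irf8 and Irf4 had 16 of 18 measured, a median of 0.04 and 0 genes at an unadjusted p under 0.05. Ebf1, an early B cell factor that is also a B cell marker here, averaged 7.48 ± 0.55 (SD, n = 3) in the knockout and 6.95 ± 0.51 in the wild type, a difference of 0.54 (SE 0.34, limma unadjusted p = 0.166), with knockout replicate 3 the highest array and the replicates numbered 2 the lowest, as for Irf4. It was higher in the knockout in 3 of 3 same-numbered pairs, and with replicate number as a block limma gave an unadjusted p of 0.0168 (SE 0.14, adjusted p = 0.766). Prdm1, a repressor that Irf4 induces in plasma cells, differed by 0.14 (SE 0.09).

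**Figure D4:**
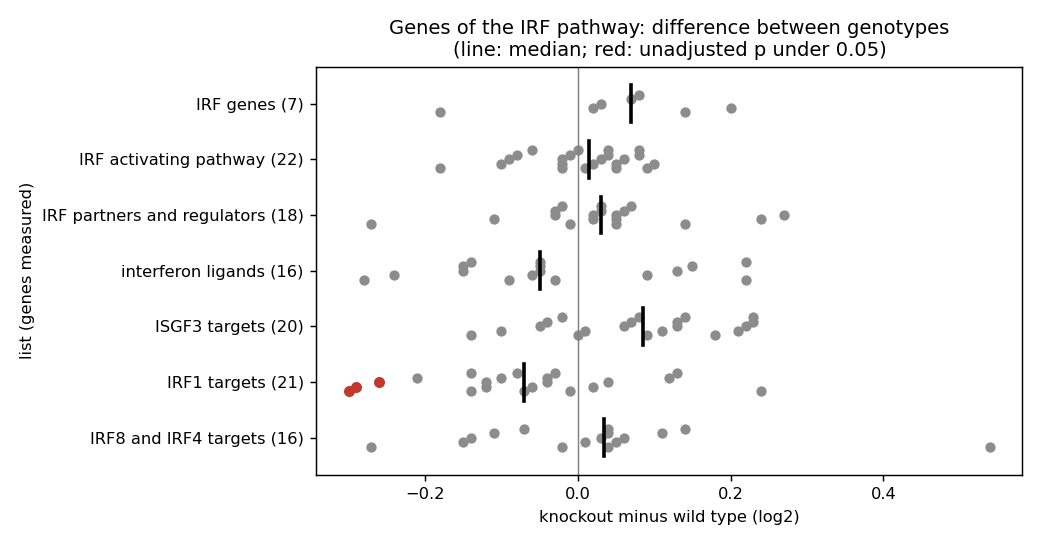
Difference between knockout and wild-type means (log2, horizontal axis) of each measured gene in the IRF family and in 6 lists of pathway genes; black lines are medians and red points genes at an unadjusted p under 0.05. The 3 red points are Il15, Cxcl9 and Cxcl10, all among the Irf1 targets.

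For the 2 members with the widest range, Irf7 (0.74) and Irf1 (0.69), the genes outside the dim 30% with the most similar values over the 6 arrays were listed. Irf7 was followed most closely by Spatc1 (Pearson r = 0.982), the small nucleolar RNA gene Snord69 (0.980) and Ppig (0.978), none of them a member of the interferon lists. Irf1 was followed by the coronin gene Coro2a (0.998), Sft2d3 (0.984) and Tmem121b (0.980). Among 16295 genes, 64 had r over 0.9 with Irf7 and 65 with Irf1, over 6 arrays that all genes share, so these values only describe the arrays.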

How the data were processed

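The authors processed the arrays with Affymetrix Expression Console (version 1.4.1.46, from the submitters' processing notes) and deposited log2 signals, 1 value for each of 41345 probe sets on each array. How background and scale were handled is unknown here, and the base of the log was inferred from the values (0.99 to 14.2). Array medians were 6.44 to 6.53. The annotation gave 23521 probe sets a single gene symbol, updated through RefSeq GRCm38.p6. Knockout minus wild type was fitted on all probe sets with limma 3.58.1 (lmFit, eBayes; R 4.3.3), Benjamini-Hochberg adjusted at 0.05. Dim means a mean in the lowest 30% of probe sets. The fit was also run on simulated data with planted differences. The simulated noise was independent between probe sets and arrays, so the run does not cover genes that vary together. Named genes were the members, the 2 genes of smallest p per pathway list, the 2 of highest mean per marker list (given where a result turns on them) and the nearest patterns of the 2 most variable members; other genes were chosen after their values were seen. Members and lists were chosen with earlier results of these data known. The labels number the arrays 1 to 3 in each group. Deviations of same-numbered arrays correlated at 0.285, 0.116 and 0.115 over genes, all above 0.1, so the numbers were taken as pairs in an alternative with a replicate block. Over all probe sets the values were 0.212, 0.0569 and 0.14, of which that of number 2 lies below 0.1. The arrays numbered 2 also differed in Eif2s3y signal (8.86 and 4.95). Differently numbered arrays were not set beside these, so the correlations do not show that the numbers are pairs. Precision is limited by 3 arrays a group.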

Additional observations from a re-analysis of the deposited data

How the results depend on the processing

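The count of 0 IRF genes past limma's adjusted p of 0.05 and the count of 0 at an unadjusted p under 0.05 held in all 15 alternatives. The median difference of the IRF genes, 0.07, lay between 0.02 and 0.07 in the 9 alternatives that keep all arrays and between 0.01 and 0.13 when 1 array was left out. The replicate block gave a median of 0.07, 0 called IRF genes and Irf7 at 0.20 (SE 0.116, limma unadjusted p = 0.147), and changed no call at the adjusted threshold. Unadjusted counts under it stand beside the B cell markers and the target lists. The MEP markers had 2 under it (Itga2b and Pf4, both lower) and the T and NK cell markers 1 (Prf1, higher), with adjusted p = 0.766 each. The other marker lists had 0. Signs of small differences turned: Irf3 was -0.01 after a further quantile normalization, Irf4 -0.08 with array weights and -0.04 with arrays blocked by their Xist and Eif2s3y signal, and Irf8 -0.01 as the mean of its probe sets. Leaving out 1 array gave ranges of -0.32 to -0.05 for Irf1, -0.01 to 0.15 for Irf2, -0.01 to 0.04 for Irf3, -0.11 to 0.19 for Irf4, 0.01 to 0.31 for Irf7, 0.02 to 0.15 for Irf8 and 0.03 to 0.24 for Irf9; array weights gave 0.25 for Irf9 and 0.15 for the median of the ISGF3 targets. Probe sets past the adjusted threshold numbered 0. Median centring of the arrays and array weighting each gave 1, and the fits on 5 arrays gave 0 to 2, the highest without knockout replicate 3. Pathway genes at an unadjusted p under 0.05 numbered 3. Array weighting gave 6, the replicate block 5, and the fits on 5 arrays 1 to 3, the lowest without wild-type replicate 3; the cause was not tested. Each signal's height above background is unknown here, so a dim signal can understate a difference.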
